A study of Drosophila melanogaster with 14 samples.

Results

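The bithorax complex is the stretch of chromosome arm 3R that holds the homeotic genes Ubx, abd-A and Abd-B. It is described here through every deposited peak that overlaps 3R:12470001-12820000, a window of 350 kb. Of 81028 peaks in 12 lists, 188 lay in the window, and the arm as a whole held 16631. The coordinates are those of Release 5 of the fly genome, counted from 1. The build is taken from the sequence names of the lists (U, Uextra and Het), since the labels name none.

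The peaks come from chromatin immunoprecipitation and sequencing in Kc167, an established cell line derived from Drosophila embryos. Antibodies against CP190, Su(Hw), dCTCF and BEAF-32 (the B form, per the labels) were used on untreated cells (0 h) and on cells given 5e-07 M 20-hydroxyecdysone (20HE), the moulting hormone, for 3 or 48 h. All cells were fixed with formaldehyde, the antibodies were made in the submitting laboratory, and of the 14 samples 2 are inputs from untreated cells that are not used here. Each protein and time had 1 library, so no difference between times could be set against replicate spread and no test was made. The 95% intervals of shares are Wilson intervals and cover counting error only, and the read depth behind a peak is unknown. Kc167 is a single line grown in culture, and no library gives transcription, so the state of the 3 genes in these cells was not measured.

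The homeotic proteins made by Ubx, abd-A and Abd-B are homeodomain transcription factors that set the identity of the thorax and abdomen. Each is switched on in the right body segments by long regulatory domains, which lie along the chromosome in the order of the segments they serve. Boundary elements such as Mcp and the Fab elements keep neighbouring domains apart, and insulator proteins bind there. dCTCF is the fly counterpart of vertebrate CTCF, Su(Hw) is a zinc-finger protein best known from the gypsy insulator, and BEAF-32 binds many boundaries next to active genes. CP190 joins such sites through DNA-binding partners.

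In the RefSeq gene table of Release 6, Ubx comes first, abd-A second and Abd-B last along 3R, with modSP directly before Ubx. Between Ubx and Abd-B the table lists 14 genes, of which 4 are protein-coding, abd-A among them, 7 are long non-coding RNAs (including lncRNA:bxd, lncRNA:iab4 and lncRNA:iab8), 2 are microRNAs (mir-iab-4 and mir-iab-8) and 1 is an antisense RNA. The limits of these genes on Release 5 were not used here. Peaks are therefore placed by their distance from the proximal edge of the window, the edge on the side of Ubx, and none is assigned to a promoter or a named boundary.

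The 188 peaks merged into 30 regions that do not touch one another. The main feature was a row of 12 regions in which CP190 and dCTCF both had a peak at 0, 3 and 48 h. Su(Hw) shared 11 of them at all times. BEAF-32 shared 10 of the 12 at 0 h but 4 at 3 h and 5 at 48 h. Of the 639 regions of 3R with CP190 and dCTCF at 0 h, 479 also held Su(Hw) and 446 BEAF-32. At 3 h the counts were 482 and 470 of 638, and at 48 h 417 and 402 of 537. These 3R counts take each time on its own, whereas the row was defined over all 3. The row began 11.8 kb from the proximal edge, at 3R:12480994-12482703, and ended 333.9 kb from it, at 3R:12803158-12804544.

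**Figure D1:**
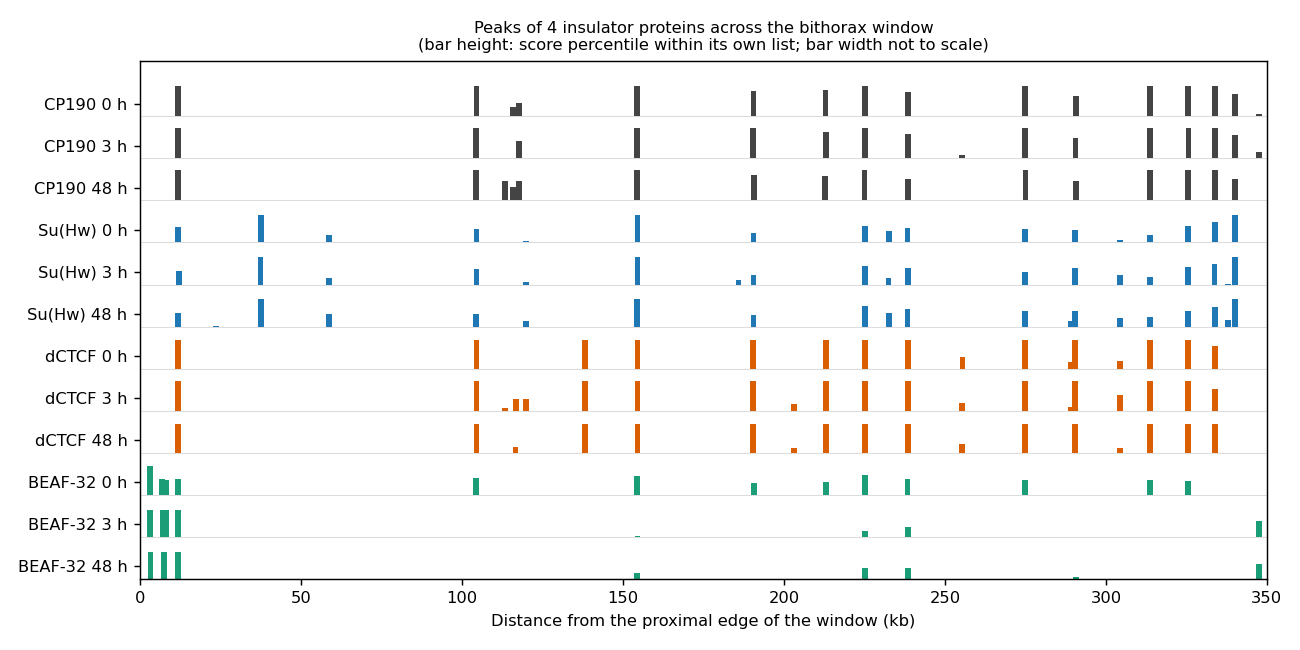
Peaks in the window for each of the 12 lists, against the distance from the proximal edge in kb. Each bar is 1 peak and its height is the percentile of the authors' score within that list. CP190 and dCTCF stand in the same 12 places at every time, while BEAF-32 has 9 bars beyond 100 kb at 0 h, of which 6 have no counterpart at 3 or 48 h.

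The spacing of the 12 regions was widest at the proximal end and shortest at the distal end, the side of Abd-B. It did not narrow steadily in between. From centre to centre, the first lay 92.6 kb from the second, at 3R:12573888-12575027, and that one 50 kb from the third, at 3R:12623597-12625302. The next distances were 36.1 kb to 3R:12659926-12661173, 22.5 kb to 3R:12682332-12683673, 12.1 kb to 3R:12694495-12695750 and 13.3 kb to 3R:12707921-12708971. Then came 36.5 kb to 3R:12744359-12745581, 15.5 kb to 3R:12759717-12761197 and 23.2 kb to 3R:12783049-12784267. The last steps were 11.9 kb to 3R:12794845-12796369 and 8.2 kb to the twelfth. The median step was 22.5 kb, and over the 477 such regions of the arm it was 35.2 kb.

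With the window cut into 3 equal parts, the proximal part held 3 CP190 peaks at 0 h, the middle part 5 and the distal part 8. For dCTCF the counts at 0 h were 2, 5 and 9, for Su(Hw) 4, 5 and 8, and for BEAF-32 5, 4 and 4. BEAF-32 was thus the only one of the 4 without its highest count in the distal part at 0 h. The longest stretch free of CP190 was 91.3 kb at 0 h, between the first and the second region of the row, and it was rank 31 of 1386 distances between neighbouring CP190 peaks on 3R. dCTCF lacked a peak over the same 91.8 kb, rank 64 of 907. Su(Hw) had peaks there at every time at 3R:12506809-12508075, at the score ceiling in all 3 lists, and at 3R:12528446-12529077, and at 48 h also at 3R:12493366-12493868, with a score of 107.37. Across all 12 lists, the longest stretch with no peak was 44.8 kb, 3R:12529078-12573887.

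Peak numbers were set beside the 78 other windows of 350 kb that tile 3R in step with this one. dCTCF stood high: its counts over the 3 times were 16, 21 and 17, where the other windows had medians of 10.0, 11.5 and 9.0. At these times 10, 2 and 5 of the other windows held more. CP190, with 16, 17 and 16 peaks, lay close to the medians of 17.0, 19.0 and 17.0. Su(Hw), with 17, 19 and 20 peaks, lay below its medians of 25.0, 25.0 and 27.0, and 69, 69 and 60 windows held more. BEAF-32 had 13 peaks at 0 h, above the median of 11.0, but 8 at 3 h and 8 at 48 h, below the medians of 15.0 and 15.5. At 3 and 48 h, 70 and 68 windows held more BEAF-32 peaks, against 28 at 0 h. Ranked by the upper 50% of each list by score, CP190 stood at the 82.7th, 77.6th and 93.6th percentile of windows at 0, 3 and 48 h in place of the 44.2nd, 39.7th and 38.5th. BEAF-32 at 0 h then stood at the 19.9th percentile in place of the 60.9th, with 3 of its 13 peaks left in that upper part.

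**Figure D2:**
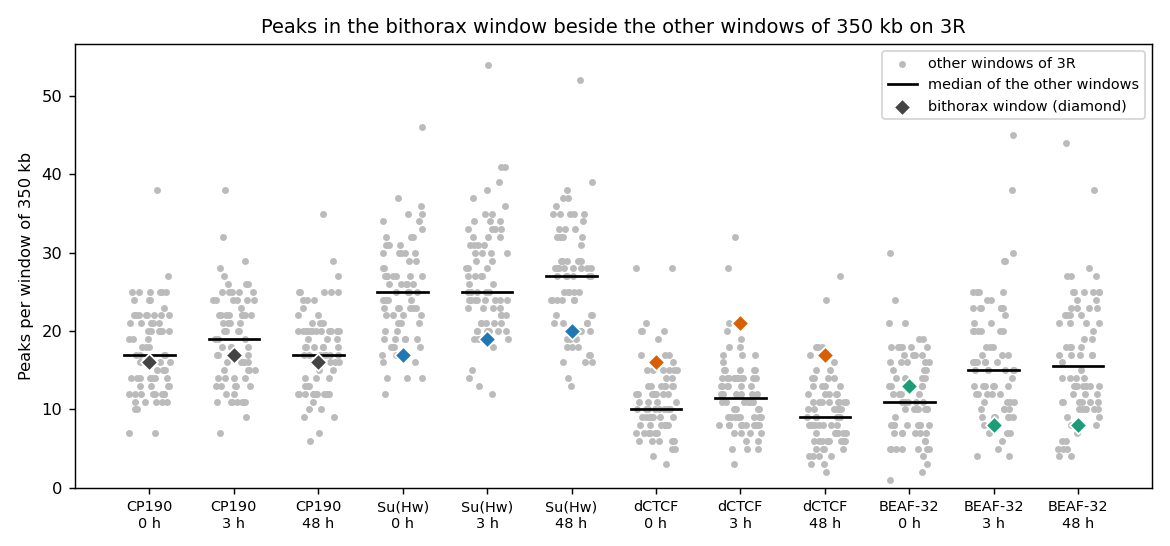
Number of peaks per window of 350 kb on 3R for each list. Grey dots are the 78 other windows, black lines their medians and diamonds the bithorax window. The dCTCF diamonds lie above the lines, the Su(Hw) diamonds below, and those of BEAF-32 above at 0 h and below at 3 and 48 h.

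The 3R windows on either side give the local setting. The proximal neighbour held 16, 21 and 23 BEAF-32 peaks over the 3 times, and the distal neighbour 12, 16 and 14. Both thus had more BEAF-32 peaks after hormone, and the window between them had fewer. For dCTCF the proximal neighbour had 20, 17 and 16 peaks and the distal neighbour 10, 9 and 8.

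Regions with all 4 proteins numbered 9 of 25 occupied regions of the window at 0 h (36.0%, interval 20.2 to 55.5), beside 12.4% of the 2672 occupied regions of 3R. At 3 h there were 4 of 29 (13.8%, 5.50 to 30.6), beside 12.2% on the arm, and at 48 h 5 of 29 (17.2%, 7.60 to 34.5), beside 10.5%. At 0 h, 2 of the 78 other windows had more such regions, at 3 h 34 did and at 48 h 15 did. In the upper 50% of each list by score, the window held 2, 0 and 0 regions with all 4 proteins, so most of the 9 rest on at least 1 peak from the lower part of a list. Regions with CP190 and dCTCF did not follow this course, and numbered 12 at each time in the upper 50%. In the full lists there were 12, 14 and 13, against medians of 7.0, 7.0 and 6.0 in the other windows, and 9, 1 and 1 windows held more. Regions of the row present at all 3 times were 12 here and a median of 5.5 elsewhere, with 4 of 78 windows holding as many or more.

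Among CP190 peaks of the window, 12 of 16 overlapped a dCTCF peak at 0 h (75.0%, 50.5 to 89.8), where the share over 3R was 46.6%. At 3 h it was 15 of 17 (88.2%, 65.7 to 96.7) beside 42.4%, and at 48 h 14 of 16 (87.5%, 64.0 to 96.5) beside 39.2%. At both treated times a pair of these CP190 peaks lay on the same broad, low-scoring dCTCF peak, and each was counted. Counted from the dCTCF side, 12 of 16 peaks overlapped CP190 at 0 h (75.0%), beside 76.3% on 3R. At 3 h 14 of 21 did (66.7% beside 71.2%), and at 48 h 13 of 17 (76.5% beside 71.8%). These dCTCF shares were near those of the arm. The lower bounds of the CP190 shares lay above the arm's share at each time. With Su(Hw) the counts were 12 of 16, 12 of 17 and 12 of 16, and the shares of 75.0%, 70.6% and 75.0% were near those of the arm, 66.0%, 66.1% and 67.5%. With BEAF-32, 10 of 16 CP190 peaks were shared at 0 h (62.5%, 38.6 to 81.5), beside 48.2% on the arm. At 3 h 5 of 17 were (29.4%, 13.3 to 53.1), beside 57.0%, and at 48 h 5 of 16 (31.2%, 14.2 to 55.6), beside 53.8%. The order of window and arm thus turned round for BEAF-32, and the arm's share lay above the interval at 3 h and inside it at 48 h.

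Within the 12 regions the peaks of the 4 proteins lay almost on top of one another. The regions were formed from overlapping peaks, so short distances follow in part from that choice. No such distances are given for the arm. At 0 h the centre of the CP190 peak was a median of 38.2 bp from that of the dCTCF peak, and at most 235.0 bp. For Su(Hw) the median was 33.5 bp over 11 regions, and for BEAF-32 104.2 bp over 10. CP190 peaks were the widest, with a median of 1162 bp in the window at 0 h, against 789 bp for dCTCF, 664 bp for BEAF-32 and 598 bp for Su(Hw). All 10 of the BEAF-32 peaks that overlapped CP190 at 0 h lay wholly inside the CP190 peak, and 45.7% of such peaks on the arm did.

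The proteins differed in how high their peaks ranked. Each peak carries the authors' score, which is used here only to rank peaks within a list. Many peaks share a ceiling of 3100, and the few above it were treated as tied with it. In the window 12 of 16 dCTCF peaks were at the ceiling at 0 h (75.0%), beside 28.0% of dCTCF peaks on 3R, 12 of 21 at 3 h (57.1% beside 22.1%) and 13 of 17 at 48 h (76.5% beside 31.5%). For CP190 it was 8 of 16 (50% beside 18.7%), 9 of 17 (52.9% beside 22.7%) and 8 of 16 (50% beside 21.0%). Su(Hw) went the other way, with 3 peaks at the ceiling at each time (17.6%, 15.8% and 15.0%, beside 36.1%, 35.6% and 35.7%). These were 2 of the Su(Hw) peaks outside the row, at 3R:12506809-12508075 and 3R:12809526-12810652, and the one in the third region of the row. In the other 10 shared regions Su(Hw) scored between 207.63 and 1987.80 at 0 h, the lowest at 3R:12783049-12784267 and the highest in the twelfth region.

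In 11 of the 12 regions of the row dCTCF was at the ceiling in all 3 lists. The twelfth, 3R:12803158-12804544, scored 2189.11 at 0 h, 1033.87 at 3 h and 3100 at 48 h. CP190 was at the ceiling in all 3 lists in 8 of the 12. At 3R:12659926-12661173 CP190 scored 1673.56 at 0 h, 3100 at 3 h and 2105.89 at 48 h, and at 3R:12682332-12683673 it scored 2040.45, 2936.72 and 1856.23. Its lower pair were 3R:12707921-12708971, with 1354.17, 2190.31 and 1010.08, and 3R:12759717-12761197, with 765.38, 1061.03 and 806.64. Even the lowest of these CP190 peaks was at percentile 58.7 of its list, so the row held CP190 peaks from the upper part of each list alone.

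Su(Hw) reached the ceiling at 3R:12623597-12625302 in all 3 lists. At 3R:12694495-12695750 it scored 830.02 at 0 h, 1094.92 at 3 h and 1960.20 at 48 h. At 3R:12480994-12482703 the scores were 624.94, 425.21 and 466.85, and at 3R:12783049-12784267 they were 207.63, 203.46 and 270.35. In the 11 shared regions its median percentile was 43.9 at 0 h, 49.4 at 3 h and 47.4 at 48 h.

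BEAF-32 had 1 peak of 13 at the ceiling at 0 h (7.69%, beside 38.4% on the arm), which was the first peak of the window, at 3R:12472323-12474062. Its 10 peaks in the row scored from 413.09 to 1618.25 at 0 h, percentiles 35.3 to 58.8 of its list. In the row at 0 h, then, most dCTCF and CP190 peaks were near the top of their lists. Su(Hw) and BEAF-32 were mostly near the middle of theirs. The row was chosen for CP190 and dCTCF peaks in all their lists. This contrast may follow in part from that choice, and no score ranks are given for the 477 such regions of the arm.

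**Figure D3:**
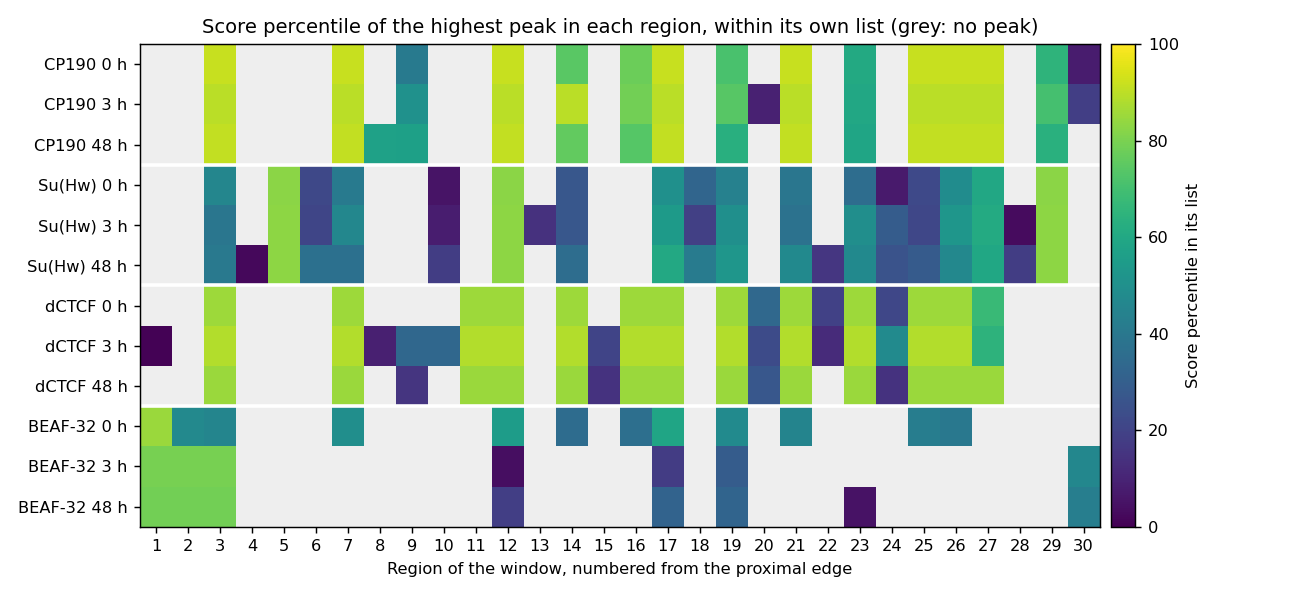
Percentile of the highest peak in each of the 30 regions, from the proximal edge (left) to the distal edge (right), within each of the 12 lists. Grey means no peak. dCTCF is bright in 12 or 13 columns at each time, and BEAF-32 fills 12 columns at 0 h, 7 at 3 h and 8 at 48 h.

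A peak of 0 h was counted as lost when the treated list of the same protein had no peak within 1 kb of it, and a treated peak as gained when the 0 h list had none. dCTCF lost 0 of 16 peaks at 3 h and 0 at 48 h (interval up to 19.4%), beside 11.7% and 17.7% on 3R. Su(Hw) lost 0 of 17 at either time (up to 18.4%), beside 5.85% and 8.75%. CP190 lost 0 of 16 at 3 h, beside 2.88%, and 1 at 48 h, beside 8.22%. The lost peak was 3R:12817226-12818020, the most distal of the window, with a score of 128.20.

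BEAF-32 lost 6 of 13 peaks at 3 h (46.2%, 23.2 to 70.9), beside 7.54% of its 942 peaks on 3R. At 48 h it also lost 6 of 13, beside 8.07%. The 3 and 48 h counts rest on the same 0 h list. No other window of the 78 lost as many: the highest was 5 at 3 h and 4 at 48 h. Of the 74 other windows with 5 or more BEAF-32 peaks, the highest share lost was 40.0% at 3 h and 37.5% at 48 h.

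**Figure D4:**
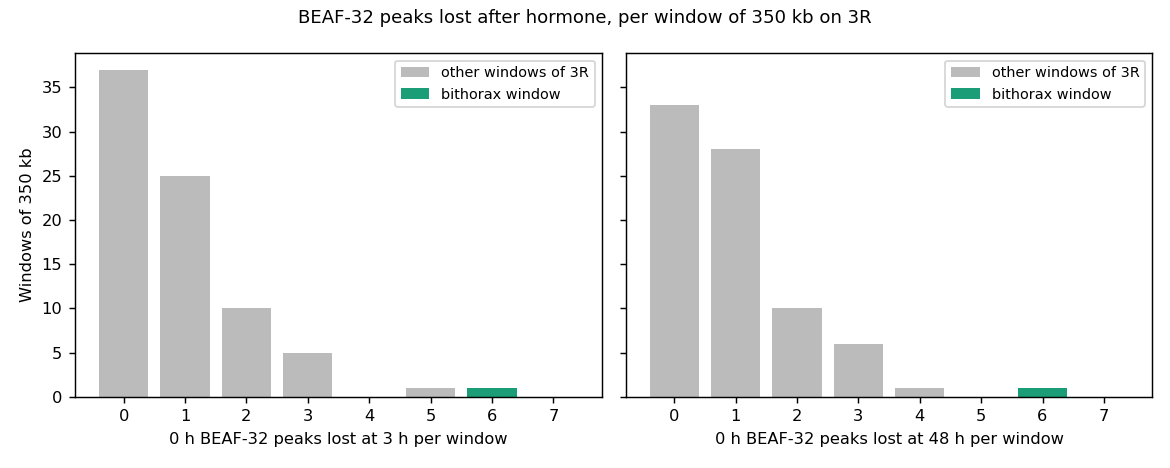
Number of windows of 350 kb on 3R, by how many of their 0 h BEAF-32 peaks were lost at 3 h (left) and 48 h (right). Grey bars are the 78 other windows and the coloured bar is the bithorax window, which stands at 6 in both panels beyond every other window.

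The 6 lost BEAF-32 peaks all lay in the row. At 3R:12574144-12574608 the score was 936.45 at 0 h, at 3R:12660392-12660898 it was 413.09, and at 3R:12682789-12683108 it was 444.04. Further out, 3R:12744658-12745218 scored 750.33, 3R:12783281-12783944 scored 632.40 and 3R:12795066-12795838 scored 542.25. None of the 6 was listed at 3 or 48 h. In each of these places CP190 and dCTCF had a peak at all 3 times, with dCTCF at the ceiling throughout, and Su(Hw) had one in 5 of the 6.

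In the other 4 regions of the row that BEAF-32 occupied at 0 h, it kept a peak at both treated times. At 3R:12623597-12625302 its score was 1322.95 at 0 h, 119.08 at 3 h and 235.29 at 48 h, which are percentiles 55.4, 3.6 and 18.6 of the 3 lists. At 3R:12694495-12695750 the scores were 1618.25, 238.33 and 529.66, at percentiles 58.8, 17.6 and 32. At 3R:12707921-12708971 they were 864.00, 472.64 and 534.44, at percentiles 47.8, 29.2 and 32.1. These 3 peaks stood near the middle of the 0 h list and at or below percentile 32.1 of both treated lists. The lists hold 6135, 6830 and 6536 peaks and their scores have no common scale that the sources define, so the values stand side by side and no change is read from them.

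The remaining BEAF-32 peaks of 0 h lay at the proximal end of the window. In the first region of the row, 11.8 kb from the edge, the score was 760.24 at 0 h and 3100 at 3 and 48 h. At 3R:12476361-12478450, where BEAF-32 alone had peaks, the highest score was 834.17 at 0 h and 3100 at both treated times. The peak nearest the edge, at 3R:12472323-12474062, was at 3100 in all 3 lists. At the distal end BEAF-32 had a peak at 3 and 48 h only, at 3R:12817052-12818121, with scores of 1254.50 and 1106.33 (percentiles 46.1 and 42.8). It lay where CP190 had a low peak at 0 and 3 h and none at 48 h. The proximal end and the distal end thus kept or gained BEAF-32 peaks, and all the losses fell between 104.5 and 325.6 kb from the proximal edge. At 0 h BEAF-32 had no peak distal to that stretch, so none could be lost there. Within the stretch it also kept peaks, at 3R:12623597-12625302, 3R:12694495-12695750 and 3R:12707921-12708971.

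BEAF-32 gained 1 of its 8 peaks at 3 h (12.5%), beside 29.1% on 3R, and 2 of 8 at 48 h (25.0%), beside 29.6%. The second was a weak peak in the ninth region of the row, 3R:12760422-12760893, with a score of 121.05. It was the only BEAF-32 peak listed at that region, and dCTCF was at the ceiling there at all times.

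BEAF-32 losses were then set beside the rest of 3R by what lay under the 0 h peak, a comparison chosen after the losses had been seen. Outside the window, BEAF-32 peaks on a dCTCF peak below the score ceiling lost 0 of 340 at either treated time (interval up to 1.12%). Those on a dCTCF peak at the ceiling lost 29 of 119 at each (24.4%, 17.5 to 32.8), and those on no dCTCF peak lost 36 of 470 at 3 h (7.66%) and 41 at 48 h (8.72%). On all main arms outside the window, peaks on ceiling dCTCF lost 166 of 576 at 3 h (28.8%, 25.3 to 32.6) and 167 at 48 h (29.0%). In the window all 10 BEAF-32 peaks on dCTCF lay on dCTCF at the ceiling, and 6 were lost (60.0%, 31.3 to 83.2). With the BEAF-32 score also held within the range of those 10 peaks, the rest of 3R lost 7 of 36 at each time (19.4%, 9.75 to 35.0). On the main arms outside the window such peaks lost 44 of 194 at 3 h (22.7%, 17.4 to 29.1) and 45 at 48 h (23.2%, 17.8 to 29.6). With the score so held, the window's interval overlaps that of the rest of 3R and lies above those of the main arms. Without that limit on score, the window's interval overlaps those of both. The difference itself was not tested. The part of dCTCF or of BEAF-32 signal strength in the losses was not tested.

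**Figure D5:**
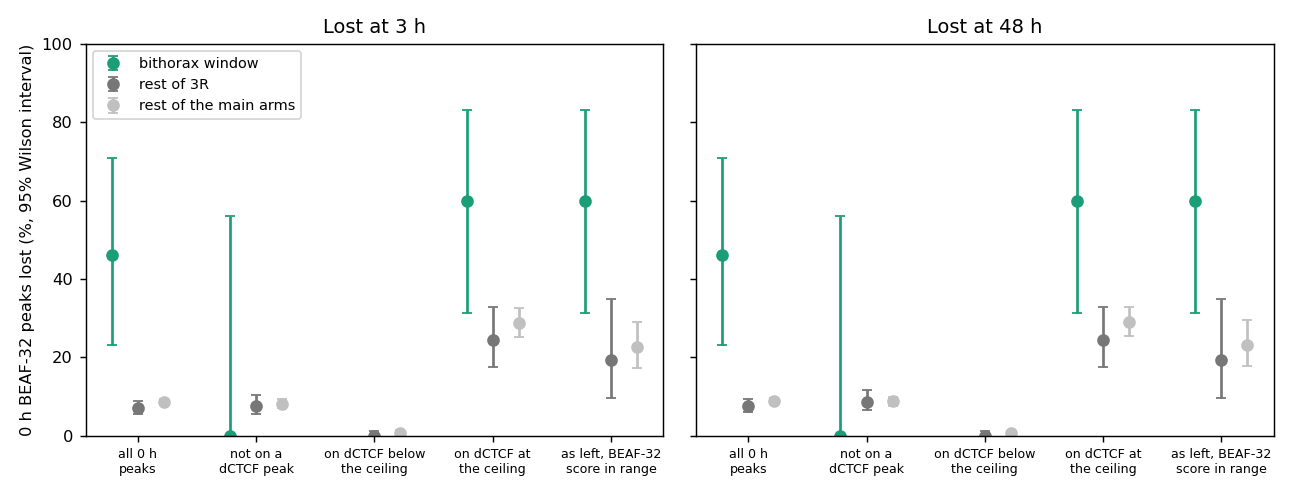
Share of 0 h BEAF-32 peaks lost at 3 h (left) and 48 h (right) in the window, on the rest of 3R and on the rest of the main arms, by overlap with dCTCF. Points are percentages and bars 95% Wilson intervals, with no window point where no peak qualified. The share is 0 of 340 for dCTCF below the ceiling and 29 of 119 for dCTCF at the ceiling on the rest of 3R.

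dCTCF was the protein with the most gains in the window. At 3 h it gained 5 of 21 peaks (23.8%, 10.6 to 45.1), beside 16.0% on 3R, and 1 of the other 78 windows gained more. All lay at or below percentile 33.5 of the 3 h list. The highest, at 3R:12585345-12588068 with a score of 223.05, spanned a pair of CP190 peaks that were present at 0 h. The others were 3R:12589601-12590256 (220.65), on a Su(Hw) peak present at all times, 3R:12672965-12673339 (159.85), where no other protein had a peak, 3R:12582203-12584527 (119.53) and 3R:12473163-12473565 (100.58), on the first BEAF-32 peak. At 48 h it gained 2 of 17 (11.8%), beside 7.94%, at 3R:12584988-12588317 (166.82) and 3R:12672851-12673393 (161.93). Thus 3 of the 5 gains at 3 h lay side by side, centred in regions between 113.4 and 119.9 kb from the proximal edge, just beyond the second region of the row.

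CP190 gained 1 of 17 peaks at 3 h (5.88%), beside 10.7%, at 3R:12724778-12725674 (score 142.14), at a site that dCTCF held throughout. At 48 h it gained 0 of 16, beside 8.69%. A CP190 peak at 3R:12582138-12584608 was listed at 48 h alone, with a score of 758.56, but lay within 1 kb of a 0 h peak and so is not counted. Su(Hw) gained 2 of 19 at 3 h (10.5%), beside 8.97%, and 2 of 20 at 48 h (10.0%), beside 12.4%. Its gains scored between 107.37 and 183.70, at percentiles 2.1 to 18.3 of its lists, and 3R:12807654-12808220 was listed at both treated times.

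Seen over the 3 times, 15 of 18 CP190 regions of the window were occupied throughout (83.3%, 60.8 to 94.2), beside 75.7% on 3R. For Su(Hw) it was 17 of 21 (81.0%, 60.0 to 92.3), beside 69.3%, and for dCTCF 15 of 21 (71.4%, 50 to 86.2), beside 59.6%. For BEAF-32 it was 6 of 14 (42.9%, 21.4 to 67.4), beside 57.2%, and another 6 of 14 were occupied at 0 h alone, a class that held 5.28% of BEAF-32 regions on the arm (interval in the window 21.4 to 67.4). The class occupied at 3 and 48 h but not at 0 h, which held 23.8% of BEAF-32 regions on 3R, had 1 of 14 in the window (7.14%, 1.27 to 31.5).

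Of the 30 regions, 9 held a single protein over all lists. Su(Hw) had 6 of these, at 3R:12493366-12493868, 3R:12506809-12508075, 3R:12528446-12529077, 3R:12655680-12656163, 3R:12702257-12702819 and 3R:12807654-12808220. dCTCF held 3R:12607957-12608630, at the ceiling at all times with no other protein on it, and 3R:12672851-12673393, at 3 and 48 h. BEAF-32 had 3R:12476361-12478450. No such count over all lists is given for 3R. At 0, 3 and 48 h taken singly, regions with 1 protein were 44.0%, 34.5% and 48.3% of occupied regions in the window. On 3R they were 50.9%, 44.5% and 49.1%. Su(Hw) alone held 16.0%, 17.2% and 24.1% in the window, beside 33.3%, 28.6% and 30.1% on 3R. Its intervals in the window, 6.40 to 34.7, 7.60 to 34.5 and 12.2 to 42.1, held the share of 3R each time. At 3R:12774196-12774764 Su(Hw) and dCTCF shared a weak site at all times without CP190. At 3R:12809526-12810652, 340.1 kb from the proximal edge, CP190 and Su(Hw) shared a site at all times without dCTCF. Su(Hw) was at the ceiling there, and CP190 scored 959.84 at 0 h, 1804.71 at 3 h and 1040.17 at 48 h.

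The limits of the window cut through no peak. The nearest peak inside the proximal edge was BEAF-32 at 0 h, 2322 bp in, and the nearest outside was CP190 at 3 h, 3R:12468849-12469948 (score 1163.23), 53 bp out. At the distal edge the nearest inside was CP190 at 3 h, 3R:12817078-12818121 (198.36), 1879 bp in, and the nearest outside was CP190 at 3 h, 3R:12821387-12822579 (919.07), 1387 bp out.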

How the data were processed

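Each of the 12 lists holds 5 columns per peak: sequence name, start, end, a peak name that begins with MACS, the peak caller, and a score. The submitters' processing notes name Bowtie 0.12.5, a read aligner. For the caller's settings, its control and the build, nothing is stated in these sources. The deposited score has no stated definition. It ran from 100.0 to 3233.06, with many peaks at exactly 3100. Lists were called per library, and the 2 input libraries were not analysed here.

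Starts were moved from 0-based to 1-based. Peaks overlapping by at least 1 bp were merged, and scores of 3100 or more took 1 shared mid-rank. The background was every window of 350 kb that tiles 3R in phase with the locus, in place of randomly drawn windows. The window is fixed by position alone, but it and the lists of results were chosen with earlier results of these data known. Any merged region could be named. Full values were due to regions with 3 or 4 proteins, a score in the top 10% of its list, or a peak missing at some time and above its list's median score. Tested on simulated data (5 runs of 1200 sites), the overlap step recovered 100% of gained and lost sites. The simulated sites all lay much more than 1 kb apart. The test thus checked the code and could not show how the rule treats neighbouring peaks of a protein. Python 3.11.15, numpy 2.4.6 and matplotlib 3.10.9 were used.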

Additional observations from a re-analysis of the deposited data

Results flagged for a closer look

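In the window the number of BEAF-32 peaks moved against that of 2 other proteins at both treated times. From 0 to 3 h it changed by -5, while Su(Hw) changed by 2 and dCTCF by 5. From 0 to 48 h BEAF-32 changed by -5, Su(Hw) by 3 and dCTCF by 1. In part this reflects 2 neighbouring BEAF-32 peaks of 0 h listed as 1 peak at 48 h, at 3R:12476361-12478450. Over 3R, BEAF-32 had 942, 1298 and 1310 peaks at 0, 3 and 48 h. Su(Hw) had 1965, 2107 and 2092 there, and dCTCF 908, 955 and 781. With 1 library per protein and time, these differences were not tested, and both treated lists of a protein are compared with the same 0 h list.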

How the results depend on the processing

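Of 198 alternative values, 142 stayed within the counting error or within 1.5 times of the value reported, and 56 moved. For median score percentiles that error was taken from the whole list, not the peaks of the window, so small shifts counted as moved. BEAF-32 lost 6 peaks at each treated time with any absence of overlap counted and, an alternative added after the data were seen, without peaks within 20 kb of either edge. With lists of equal length it lost 7 at 3 h and 6 at 48 h. Regions with CP190 and dCTCF numbered 12 at each time in the top 50% of the lists.

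With the top 50% of each list by score, window counts were 5, 6 and 6 for Su(Hw) at 0, 3 and 48 h, 13 for dCTCF at 3 h, and 3, 4 and 3 for BEAF-32. With lists of equal length, Su(Hw) had 10, 9 and 11 peaks. With the window narrowed by 10 kb at each end, BEAF-32 had 4 peaks at 3 h and 5 at 48 h. In the top 50%, the rank among windows was 82.7, 77.6 and 93.6% for CP190 at 0, 3 and 48 h, 4.5% for Su(Hw) at 0 h and 6.4% at 48 h, 98.7% for dCTCF at 0 and 48 h, and 19.9% for BEAF-32 at 0 h. By bases covered it was 56.4% for CP190 at 48 h, 3.8, 3.8 and 11.5% for Su(Hw), 94.9% for dCTCF at 0 h and 97.4% at 48 h, and 42.3% for BEAF-32 at 0 h, so the rank of BEAF-32 at 0 h passed to the lower side of the middle.

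The top 50% left 19 merged regions. Regions with all 4 proteins were then 2, 0 and 0, and regions with 1 protein were 3, 5 and 6. With centres within 250 bp, 62.5% of CP190 peaks shared dCTCF at 48 h. With any absence of overlap counted, CP190 gained 1 peak at 48 h and dCTCF lost 1. At equal length Su(Hw) gained 1 at 3 h and 1 at 48 h, and BEAF-32 gained 1 at 48 h. Without the window ends BEAF-32 gained 0 at 3 h and 1 at 48 h. The median score percentile among main-arm peaks was 82.5, 88.4 and 81.1 for CP190, 87.4 and 82.8 for dCTCF at 3 and 48 h, and 41.8, 58.8 and 34.4 for BEAF-32. Among peaks of 3R it was 82.7, 88.7 and 81.7 for CP190 and 40.9, 56.5 and 32.1 for BEAF-32. In the whole lists these medians were 84.5, 89.7 and 83.4 for CP190 and 45.5, 62.9 and 37.5 for BEAF-32. For dCTCF at 3 and 48 h they were 88.4 and 85.0. The cause of these moves was not tested, beyond the fewer peaks that a stricter list holds.

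No paired analysis was possible because each protein and time had 1 library. Counts of 8 to 21 peaks per list limit every share given, and the depth of the libraries is unknown.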
